A study of Homo sapiens with 6 samples.

Results

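The cytosolic and mitochondrial heat shock chaperones are described here as 36 genes taken by symbol from a table of 35473 gene rows. They comprise the transcription factors HSF1 and HSF2, the HSP90, HSP70 and HSP40 families, small heat shock proteins, the mitochondrial chaperonin, and cochaperones of HSP70 and HSP90. The data are 6 polyA-selected RNA-seq libraries of IMR32, a human neuroblastoma line. In 3 of them the cells had received 5 µM CBR-470-1 for 24 h, and in the other 3 the DMSO vehicle alone for the same time. The study's title concerns glycolysis and the KEAP1-NRF2 pathway, and CBR-470-1 is its test compound. A single cell line, dose and time were analysed. The labels do not say whether the replicates were grown as separate cultures on separate days, so p-values measure the spread between these libraries, which may be technical.

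Chaperones bind unfolded proteins and help them fold, move or be degraded. HSF1 is held inactive in unstressed cells and, when unfolded proteins accumulate, binds heat shock elements in promoters and raises transcription of HSP70, HSP40 and HSP90 genes. Each family also has constitutive members, such as HSPA8 and HSP90AB1, which are abundant without stress, and members that are classically induced, such as HSPA1A, HSPA1B, DNAJB1 and HSP90AA1. HSP70 takes its substrates from HSP40 proteins and passes some of them to HSP90, and HSPD1 with HSPE1 folds proteins inside mitochondria.

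Levels are given as deposited, in TPM, a length-scaled share of the transcripts in a library that can be set side by side between genes. Each library pools many cells, so fewer cells that express a gene and less of its RNA per cell cannot be told apart. Because a level is a share, a change in the total RNA of the cells does not show in it. The columns summed to between 972453 and 973696 TPM, and the depth behind the values is unknown. Of 8 adrenergic neuroblastoma markers all were tested, with summed levels of 1720.5 to 1879 TPM in DMSO and 1681 to 1683 TPM in CBR-470-1. DBH and CHGA among them were called lower in CBR-470-1 (limma adjusted p = 0.0247 and 0.0468), and the other 6 were not called. Both calls were lost when any single library was left out. The 6 fibroblast markers had summed levels of 24.4 to 25.5 TPM in DMSO and 28.8 to 29.1 TPM in CBR-470-1, and of the 3 that were tested none was called. The 4 epithelial markers summed to at most 0.842 TPM in any library, with KRT5 at 0. The part of these differences in the results below was not tested.

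The chaperone mRNAs were abundant in vehicle-treated cells, and a few genes supplied more than the rest together. The 36 genes together held 1.17%, 1.15% and 1.11% of the column total in the DMSO libraries and 1.16%, 1.19% and 1.16% in the CBR-470-1 libraries, so the ranges of the groups overlapped. The 5 most abundant members supplied 56.0% to 56.9% of that sum. In DMSO the order of levels began with HSPA8 (1823 ± 21.6 TPM, SD, n = 3), the constitutive cytosolic HSP70, followed by HSP90AB1 (1584 ± 15.4 TPM) and HSP90AA1 (1223 ± 68.6 TPM). HSPD1 (850.1 ± 43.1 TPM) and HSPE1 (829 ± 18.1 TPM) came next and did not differ beyond their spread. At the other end, HSPA1A, HSPA1L and the lens and muscle chaperone CRYAB had means of 0.431, 0.155 and 0.0596 TPM. These 3 genes were under the mean of 1 TPM required for a test, which left 33 members tested.

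**Figure D1:**
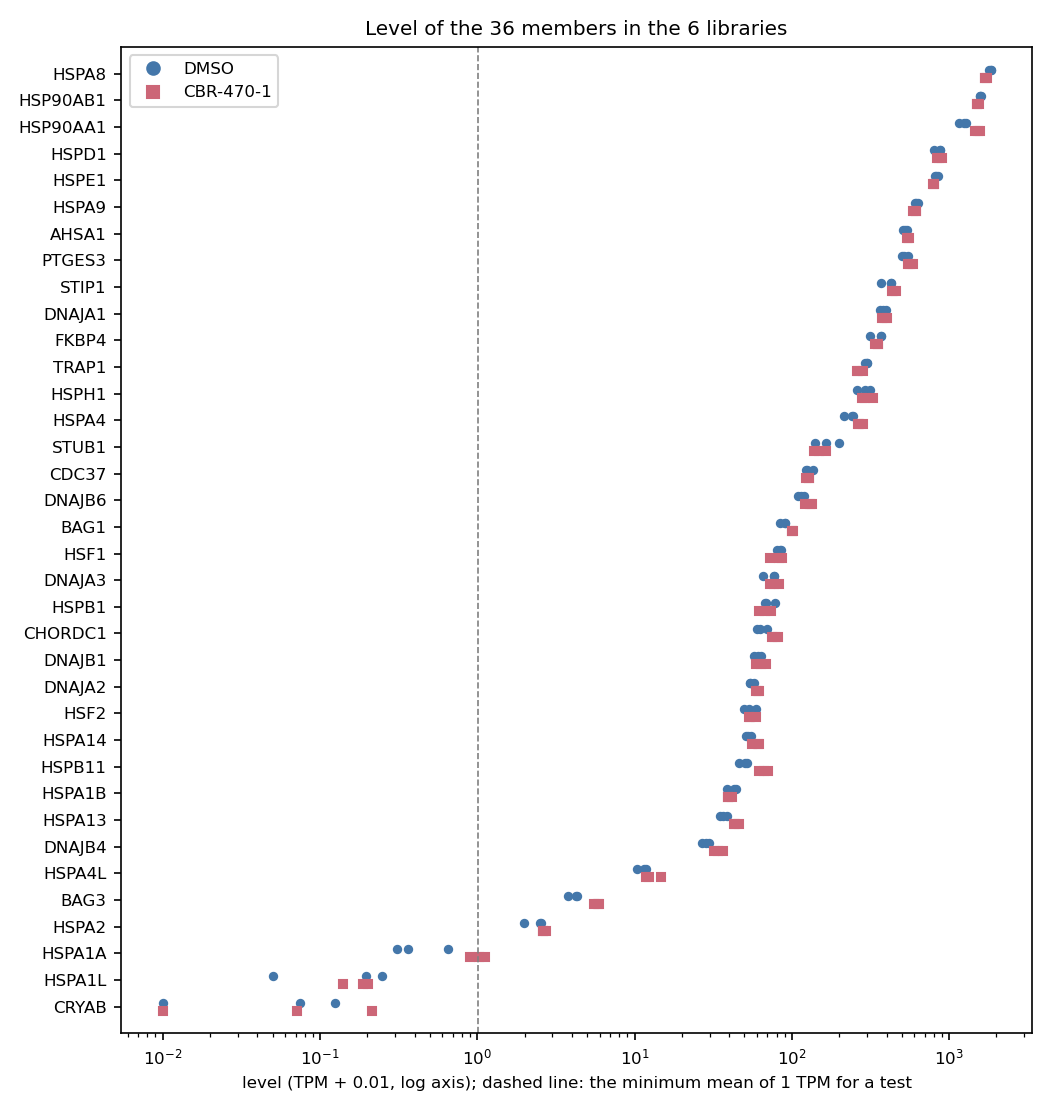
Level of each of the 36 genes, ordered by the DMSO mean, on a log axis of TPM + 0.01. Each circle is a DMSO library and each square a CBR-470-1 library, 3 of each per gene. HSPA8 has the highest DMSO mean and CRYAB the lowest, and only HSPA1A, HSPA1L and CRYAB lie left of the dashed line as means over the 6 libraries.

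Of the 33 tested members 2 rose and 0 fell in CBR-470-1. The members that rose were HSP90AA1 and HSPB11. A gene was called at a limma p under 0.05 after Benjamini-Hochberg adjustment over the 13470 rows whose mean reached 1 TPM. Over all those rows 1.13% were called higher and 0.839% lower. At an unadjusted limma p under 0.05, 12 members were higher and 2 lower, which is 36.4% and 6.06% of the members against 13.8% and 9.65% of all tested rows. In 13 members every CBR-470-1 library lay above every DMSO library (39.4%, against 17.7% of all tested rows), and in 4 members every one lay below (12.1%, against 12.5%). With the GC and length correction 3 members were called higher and 0 lower, and of all tested rows 1.15% and 1.63%. The median log2 fold change was 0.07 over the tested members and 0.03 over all tested rows. These counts describe the members and were not tested as a set. The rows were not matched to the members for level: 31 of the 33 members passed a filter of 5 TPM, against 10476 of the 13470 rows. The members do not vary independently of each other: DMSO replicate 3 was the lowest of its group for 21 of the 33 members, DMSO replicate 1 the highest for 20, and CBR-470-1 replicate 2 the highest for 17. Across the 33 members the log2 fold change had a Spearman correlation of -0.43 with the GC content of the longest transcript, and across 13440 tested rows it was -0.35. Genes are not independent replicates, so these correlations are descriptions only.

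**Figure D2:**
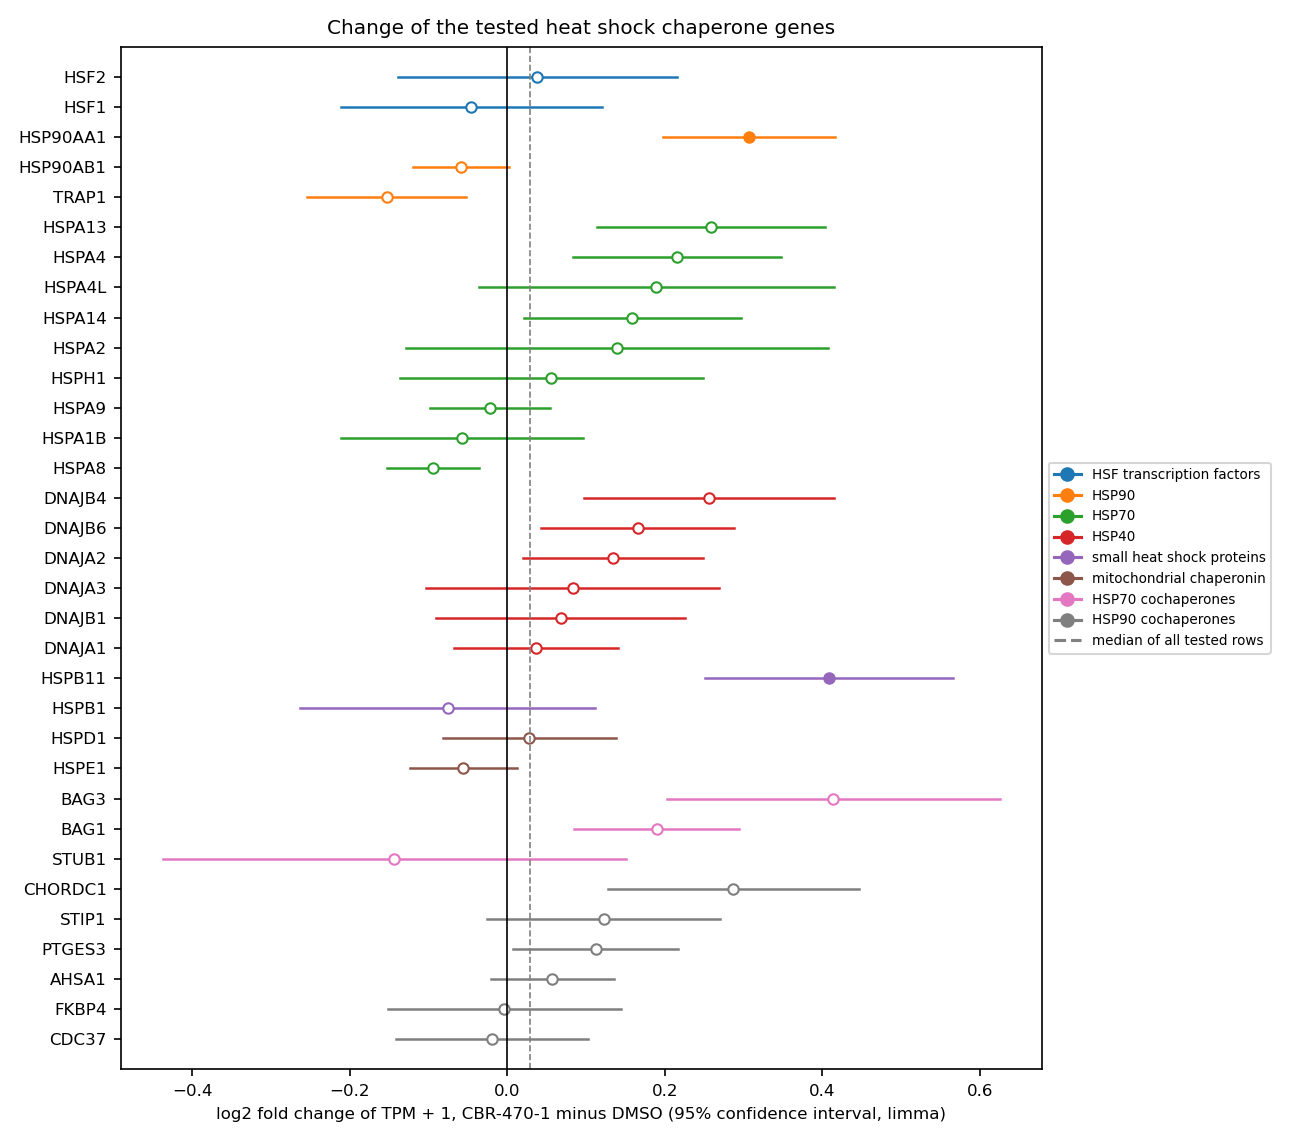
Log2 fold change of TPM + 1, CBR-470-1 minus DMSO, for the 33 tested members, with 95% confidence intervals from limma. Filled circles are the 2 called genes, HSP90AA1 at 0.31 and HSPB11 at 0.41, colours mark families, and the dashed line is the median of all tested rows at 0.03.

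The heat shock factors did not differ beyond their spread. HSF1, the main transcription factor of the response, averaged 83.2 ± 2.91 TPM with DMSO and 80.8 ± 7.24 TPM with CBR-470-1 (log2 fold change -0.05, 95% interval -0.21 to 0.12, limma adjusted p = 0.732). HSF2, a related factor that can form mixed trimers with HSF1, stood at 54.0 ± 4.92 and 55.4 ± 2.90 TPM (log2 fold change 0.04, 95% interval -0.14 to 0.22, limma adjusted p = 0.791). The sign of both log2 fold changes flipped with the GC and length correction, and without some single libraries. HSF1 is controlled largely by trimer formation and modification of the protein, which mRNA levels do not show.

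Of the cytosolic HSP90 genes, HSP90AA1 rose and HSP90AB1 did not pass the test. HSP90AA1, the inducible form, had 1285, 1235 and 1150 TPM in the DMSO libraries and 1458, 1562 and 1517 TPM in the CBR-470-1 libraries. All CBR-470-1 libraries were above all DMSO libraries, and the mean was 1.24 times as high (log2 fold change 0.31, SE 0.0467, limma adjusted p = 0.0297). HSP90AB1, the constitutive form, had 1602, 1577 and 1573 TPM in DMSO and 1505, 1555 and 1502 TPM in CBR-470-1. Its groups did not overlap either, with the CBR-470-1 libraries lower, but it did not pass the test (log2 fold change -0.06, SE 0.0262, limma adjusted p = 0.229). The HSP90AA1 gene (ENSG00000080824.18) spans positions 102080738 to 102139699 of chromosome 14 on the minus strand, by GENCODE 29 on GRCh38. The call of HSP90AA1 was lost without DMSO replicate 2 (limma adjusted p = 0.0937) and when CBR-470-1 replicate 1, 2 or 3 was dropped (0.0727, 0.116 and 0.118), but it held without DMSO replicate 1 or 3 (0.0487 and 0.0490). The same call failed with no filter on low values (0.0961) and with no variance trend (0.0932).

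The ratio of HSP90AA1 to HSP90AB1 mRNA within a library does not depend on how that library was scaled. It was 0.802, 0.783 and 0.731 in the DMSO libraries and 0.968, 1.00 and 1.01 in the CBR-470-1 libraries, so the inducible form was below the constitutive form in every DMSO library and near its level after treatment. The difference was 0.37 on the log2 scale, higher in 3 of 3 libraries, with an exact two-sided permutation p = 0.1. That is the smallest p that 3 against 3 libraries allow, and it became 0.267 after Benjamini-Hochberg adjustment over the 8 ratios examined. TRAP1, the mitochondrial HSP90, had 302, 299 and 291 TPM in DMSO and 282, 262 and 259 TPM in CBR-470-1. Its CBR-470-1 libraries were all lower, without passing the test (log2 fold change -0.15, SE 0.0433, limma adjusted p = 0.101).

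Heat shock elements were looked up in the promoters of the members, since HSF1 acts through them. The letters searched were GAANNTTC and TTCNNGAA for 2 adjoining units, and the same alternation of GAA and TTC, with NN between them, carried on to 3 units, on both strands, in the 250 bases before each RefSeq gene start (GRCh38.p14). A match with 3 units contains matches with 2. Of the 36 members 30 had a promoter in the table, with 42 starts in all. HSF1, HSPA14, HSPB11, CRYAB, FKBP4 and STUB1 had none and were not searched. The called HSPB11 is therefore not covered by the comparison below. By gene, 14 of those 30 members held a match with 2 units (46.7%, against 14% of 27305 genes), and 6 held one with 3 units (20%, against 0.557%). HSPA1A and HSPA1L are transcribed in opposite directions from overlapping windows, so their matches are not separate. A match is a run of letters and not a measured binding site. The 8 stretches around matches with 3 units are shown because they let the called HSP90AA1 be set beside members that were not called. Each is 30 bases, 5′ to 3′ on the strand of the gene, with the matching bases in capitals.
HSP90AA1: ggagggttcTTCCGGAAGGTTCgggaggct
HSP90AB1, distal: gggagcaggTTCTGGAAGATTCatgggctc
HSP90AB1, proximal: ctgagattgTTCTGGAAGCTTCtggattct
HSPA8, distal: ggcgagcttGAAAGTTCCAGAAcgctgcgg
HSPA8, proximal: gcgggccccTTCTGGAAGGTTCtaagatag
DNAJB6: aagagccgaGAACCTTCGCGAAggtggggc
CHORDC1: accgGAAAATTCGCGAAGGTTCCTGAAacg
HSPD1: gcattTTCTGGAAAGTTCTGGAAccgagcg
HSP90AA1, HSP90AB1 and HSPD1 also have other RefSeq starts, whose windows held no match with 2 or 3 units. The HSP90AA1 stretch is chr14:102087112-102087141 on the minus strand, with its first capital 88 bases before the start, inside an annotated UTR of GENCODE 29. The HSP90AB1 stretches are chr6:44247769-44247798 and chr6:44247822-44247851 on the plus strand, both in an intron, with first capitals 165 and 112 bases before the start. The HSPA8 stretches are chr11:123062346-123062375 and chr11:123062171-123062200 on the minus strand, 230 and 55 bases before the start, both inside annotated UTRs. The DNAJB6 stretch is chr7:157336864-157336893 on the plus strand, in an intron, and its capitals begin 131 bases before the start. The CHORDC1 stretch is chr11:90223084-90223113 on the minus strand in an annotated UTR, where overlapping matches run through 23 bases from 60 bases before the start. The HSPD1 stretch is chr2:197500061-197500090 on the minus strand in an annotated UTR, with 18 matching bases from 245 bases before the start. The 6 genes with these matches had log2 fold changes of 0.31 for HSP90AA1, 0.29 for CHORDC1, 0.17 for DNAJB6, 0.03 for HSPD1, -0.06 for HSP90AB1 and -0.09 for HSPA8, and of these only HSP90AA1 passed the test. Members whose windows held no match with 2 or 3 units also lay on both sides of 0. Among them BAG3, HSPA13, HSPA4 and BAG1 had 0.41, 0.26, 0.22 and 0.19, and TRAP1 and HSPE1 had -0.15 and -0.06. A link between matches and changes was not tested.

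None of the 9 tested HSP70 genes was called. HSPA8 had 1834, 1836 and 1798 TPM in DMSO and 1737, 1691 and 1694 TPM in CBR-470-1. Every CBR-470-1 library was lower, by a small amount, and the test was not passed (log2 fold change -0.09, SE 0.0250, limma adjusted p = 0.0890). HSPA4, an HSP110-type nucleotide exchange factor that releases substrates from HSP70, had 245, 240 and 215 TPM in DMSO and 268, 282 and 263 TPM in CBR-470-1. HSPA13, an HSP70 relative found in the microsome fraction, had 38.9, 36.4 and 34.7 TPM and then 43.3, 46.2 and 42.6 TPM. Both lay higher in every CBR-470-1 library, with log2 fold changes of 0.22 (SE 0.0566, limma adjusted p = 0.0883) and 0.26 (SE 0.0621, limma adjusted p = 0.0756). With the GC and length correction these log2 fold changes were 0.14 and 0.17. HSPA14, a ribosome-associated HSP70, had 55.4, 51.4 and 52.5 TPM in DMSO and 55.7, 60.5 and 62.1 TPM in CBR-470-1, with the lowest treated library just above the highest vehicle library (limma adjusted p = 0.165). HSPA2, best known from the testis, was low, with 2.52, 1.98 and 2.49 TPM in DMSO and 2.74, 2.63 and 2.61 TPM after treatment, which did not overlap (limma adjusted p = 0.496). HSPA4L overlapped between the groups (11.2 ± 0.761 and 12.9 ± 1.5 TPM), as did the HSP110 gene HSPH1 (289 ± 27.8 and 300.2 ± 24.1 TPM), which is induced by heat, and HSPA9 (618 ± 12.8 and 609 ± 14.3 TPM), the mitochondrial HSP70.

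The classical stress-inducible HSP70 is encoded by HSPA1A and HSPA1B, whose coding sequences differ at 4 of 1926 aligned bases in GENCODE 29, or 99.8% identity. Reads of such copies can be assigned to either, so the split between them is uncertain. HSPA1B was listed at 42.6, 38.7 and 44.5 TPM in DMSO and at 41.9, 39.6 and 39.2 TPM in CBR-470-1, and the groups overlapped (log2 fold change -0.06, 95% interval -0.21 to 0.10, limma adjusted p = 0.629). HSPA1A was listed far lower, at 0.299, 0.644 and 0.351 TPM in DMSO and 1.02, 1.11 and 0.890 TPM in CBR-470-1. All treated libraries were above all vehicle libraries, but the gene was under the filter, and with no filter it did not pass (log2 fold change 0.50, limma adjusted p = 0.134). The sum of both genes was 42.9, 39.3 and 44.8 TPM in DMSO and 42.9, 40.7 and 40.1 TPM in CBR-470-1, and these ranges overlapped. HSPA1L, a testis-type neighbour in the same cluster on chromosome 6, was between 0.0400 and 0.238 TPM in every library. Relative to HSPA8, the constitutive form, HSPA1B mRNA had a ratio of 0.0230 ± 0.00184 in DMSO and 0.0235 ± 0.000501 in CBR-470-1 (exact permutation p = 0.8, adjusted 0.914 over the 8 ratios). The ratio of HSPA1A to HSPA8 was higher in 3 of 3 treated libraries (log2 difference 1.40, exact permutation p = 0.1, adjusted 0.267) but rests on the uncertain HSPA1A values, and it shrank to 0.59 when 1 TPM was added to both genes.

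**Figure D3:**
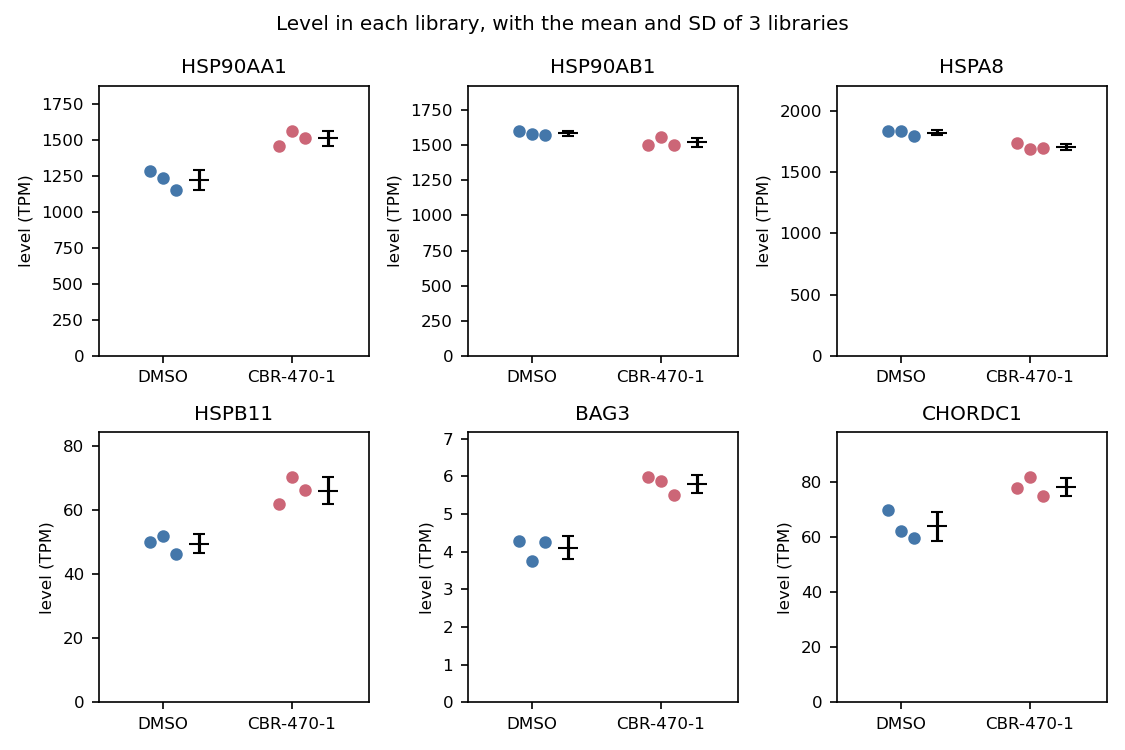
Level in TPM of 6 members in each library, with DMSO at the left and CBR-470-1 at the right of each panel, all axes starting at 0. Points are libraries, and the bar beside them is the mean and SD of 3. The groups do not overlap in any panel: HSP90AA1, HSPB11, BAG3 and CHORDC1 are higher and HSP90AB1 and HSPA8 lower in CBR-470-1, and only HSP90AA1 and HSPB11 passed the test.

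The 6 HSP40 genes, which deliver substrates to HSP70 and stimulate its ATPase, all had positive log2 fold changes between 0.04 and 0.26, and none was called. Of all tested rows 56.9% had a positive log2 fold change. DNAJA1 turned negative with median centring and with the GC and length correction. DNAJB4 had 28.5, 29.8 and 26.8 TPM in DMSO and 32.2, 36.3 and 33.8 TPM in CBR-470-1 (log2 fold change 0.26, SE 0.0680, limma adjusted p = 0.0890). DNAJB6, a potent suppressor of polyglutamine aggregation, had 114, 119 and 110 TPM and then 122, 130 and 134 TPM (log2 fold change 0.17, limma adjusted p = 0.123). DNAJA2, a constitutive partner of HSPA8, had 57.1, 54.0 and 54.3 TPM and then 58.8, 61.1 and 62.0 TPM (log2 fold change 0.13, limma adjusted p = 0.158). In these genes the treated libraries were all above the vehicle libraries. With the GC and length correction the log2 fold changes of DNAJB4, DNAJB6 and DNAJA2 were 0.18, 0.15 and 0.05. DNAJB1, the classical heat-inducible HSP40, overlapped between the groups at 60.7 ± 3.17 and 63.7 ± 4.58 TPM (log2 fold change 0.07, 95% interval -0.09 to 0.23, limma adjusted p = 0.578). DNAJA1 stood at 380.1 ± 17.1 and 389.7 ± 12.7 TPM, and DNAJA3, the mitochondrial HSP40, at 73.3 ± 6.59 and 77.6 ± 5.14 TPM, without passing. The ratio of DNAJB1 to DNAJA1 was 0.160 ± 0.0133 in DMSO and 0.164 ± 0.0171 in CBR-470-1 (exact permutation p = 0.8, adjusted 0.914).

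HSPB11 had the larger relative change of the called members. It had 50.2, 52.1 and 46.4 TPM in DMSO and 61.9, 70.3 and 66.3 TPM in CBR-470-1, so all treated libraries were above all vehicle libraries. The mean was 1.33 times as high (log2 fold change 0.41, SE 0.0673, limma adjusted p = 0.0364). Although named with the small heat shock proteins, HSPB11 is also known as IFT25, a subunit of the intraflagellar transport machinery of cilia. HSPB11 (ENSG00000081870.11) lies on chromosome 1 from 53916574 to 53945929 on the minus strand in GENCODE 29. The call was lost when any library was left out, with limma adjusted p-values of 0.0783, 0.0896 and 0.0852 without DMSO replicates 1, 2 and 3 and of 0.0727, 0.124 and 0.131 when CBR-470-1 replicate 1, 2 or 3 was dropped. The HSPB11 call also failed with no filter (0.0832) and with no variance trend (0.0759). HSPB1, the widely expressed small heat shock protein HSP27, overlapped between the groups at 71.4 ± 5.83 and 67.7 ± 5.53 TPM (log2 fold change -0.08, 95% interval -0.26 to 0.11, limma adjusted p = 0.599), and its sign flipped with the GC and length correction. CRYAB was at 0 in DMSO replicate 1 and CBR-470-1 replicate 3 and at most 0.205 TPM elsewhere.

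The mitochondrial chaperonin showed no call. HSPD1, which encodes HSP60, averaged 850.1 ± 43.1 TPM with DMSO and 867 ± 34.9 TPM with CBR-470-1 (log2 fold change 0.03, 95% interval -0.08 to 0.14, limma adjusted p = 0.751), with a sign that flipped with median centring and with the GC and length correction. HSPE1, its cochaperonin HSP10, which lies within the annotated span of HSPD1 on chromosome 2, on the opposite strand, had 849, 825 and 814 TPM in DMSO and 802, 791 and 800.1 TPM in CBR-470-1. Its treated libraries were all lower, without passing the test (log2 fold change -0.06, limma adjusted p = 0.289). The ratio of HSPD1 to HSPE1 was 1.02 ± 0.0371 in DMSO and 1.09 ± 0.0517 in CBR-470-1 and overlapped between the groups (exact permutation p = 0.2, adjusted 0.4).

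**Figure D4:**
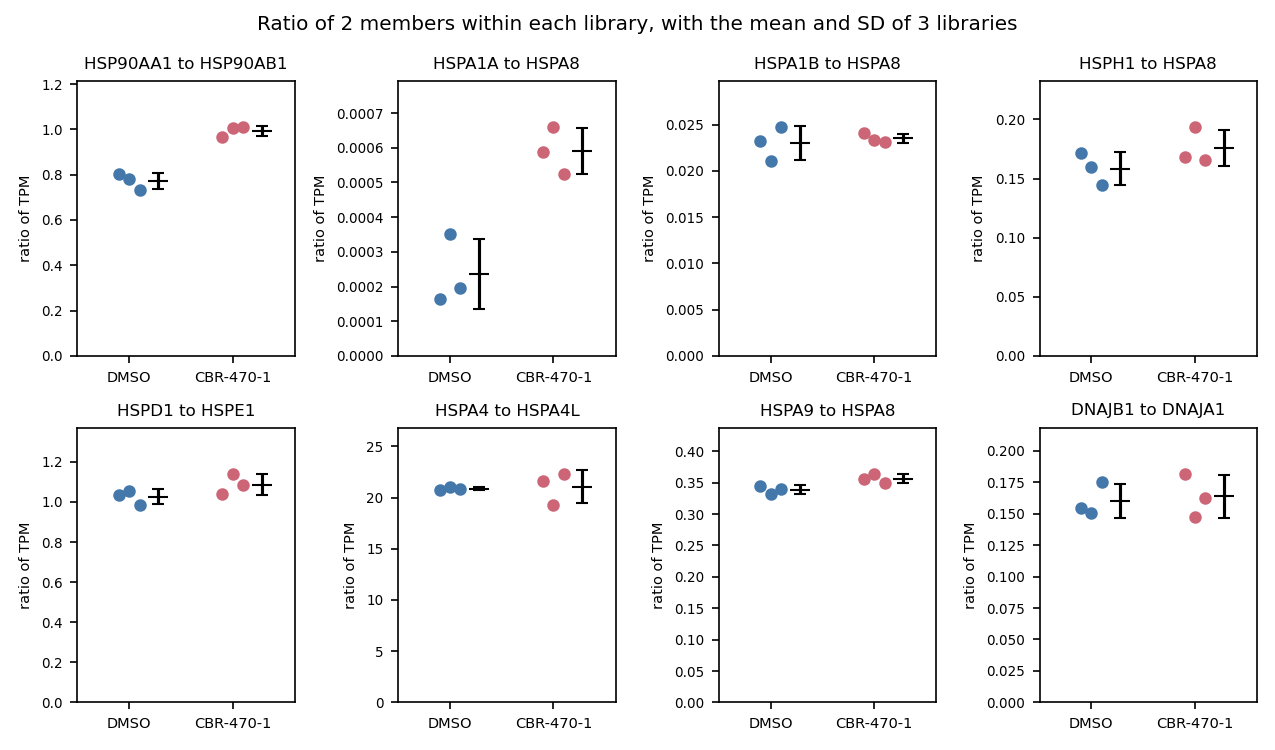
Ratio of the TPM of 2 members within each library, for 8 ratios, with all axes starting at 0. Points are libraries, 3 per group, and the bar is their mean and SD. The groups do not overlap for HSP90AA1 to HSP90AB1, HSPA1A to HSPA8 and HSPA9 to HSPA8, each with an exact permutation p of 0.1, the smallest possible.

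Of the remaining ratios, HSPA9 to HSPA8 was 0.339 ± 0.00668 in DMSO and 0.357 ± 0.00732 in CBR-470-1, higher in 3 of 3 treated libraries (exact permutation p = 0.1, adjusted 0.267). HSPH1 to HSPA8 was 0.158 ± 0.0136 and 0.176 ± 0.0153 (exact permutation p = 0.3, adjusted 0.48), and HSPA4 to HSPA4L was 20.9 ± 0.155 and 21.1 ± 1.61 (exact permutation p = 1, adjusted 1). Their groups overlapped.

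Among the HSP70 cochaperones, BAG3 had a log2 fold change close to that of HSPB11 without being called. BAG3 links HSP70 to small heat shock proteins and to selective autophagy and is itself a heat shock gene. It had 4.29, 3.75 and 4.26 TPM in DMSO and 5.97, 5.89 and 5.52 TPM in CBR-470-1, with all treated libraries above all vehicle libraries and a mean 1.41 times as high (log2 fold change 0.41, SE 0.0904, limma adjusted p = 0.0651). With the GC and length correction it passed (log2 fold change 0.45, limma adjusted p = 0.0438). With the replicate block added to that correction BAG3 did not pass (limma adjusted p = 0.125). With a pseudocount of 5 TPM in place of 1 its log2 fold change was 0.25 (limma adjusted p = 0.0630). BAG1, a nucleotide exchange factor that couples HSP70 to the proteasome, had 84.3, 90.1 and 90.3 TPM in DMSO and 100.4, 100.1 and 101.8 TPM in CBR-470-1. Its treated libraries lay close together and above the others (log2 fold change 0.19, SE 0.0448, limma adjusted p = 0.0742). STUB1, the ubiquitin ligase CHIP that marks chaperone clients for degradation, varied widely among the vehicle libraries, at 139, 164 and 199 TPM, and stood at 137, 164 and 149 TPM after treatment (limma adjusted p = 0.525).

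None of the 6 HSP90 cochaperones was called. CHORDC1, an HSP90-binding protein, had 70.0, 62.4 and 59.9 TPM in DMSO and 78.1, 81.8 and 75.0 TPM in CBR-470-1, with no overlap (log2 fold change 0.29, SE 0.0683, limma adjusted p = 0.0754). Its log2 fold change was 0.19 with the GC and length correction. STIP1, the adaptor that joins HSP70 to HSP90, had 428, 430.2 and 368 TPM in DMSO and 436, 438 and 458 TPM in CBR-470-1. The groups were barely separate, with DMSO replicate 3 far below the other vehicle libraries (log2 fold change 0.12, limma adjusted p = 0.288). PTGES3, the cochaperone p23, stood at 524 ± 23.8 and 566 ± 20.7 TPM (log2 fold change 0.11, limma adjusted p = 0.188). AHSA1, which stimulates the HSP90 ATPase, stood at 526 ± 14.4 and 547 ± 9.12 TPM (limma adjusted p = 0.344). The immunophilin FKBP4 was at 349.8 ± 30.4 and 348 ± 6.90 TPM and the kinase-specific cochaperone CDC37 at 128 ± 7.43 and 127 ± 3.37 TPM, and their groups overlapped.

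Other genes of chaperone biology, 81 in 8 lists, gave no call among the 65 that were tested. At an unadjusted limma p under 0.05, 13 of them were higher (20%, against 13.8% of all tested rows) and 6 lower (9.23%, against 9.65%). Their median log2 fold change was 0.05, against 0.03 over all tested rows. HSPA6, a heat-inducible HSP70 gene, and the pseudogene HSPA7 were at most 0.0759 TPM in any library, and none of 7 further small heat shock protein genes was abundant enough to test. For HSPA12A the log2 fold change was 0.16 (limma adjusted p = 0.281). Of 18 tested HSP40 genes, DNAJC27, DNAJC24 and DNAJC13 had the highest log2 fold changes, 0.44, 0.30 and 0.30 (limma adjusted p = 0.0722, 0.0781 and 0.136). DNAJC2, a ribosome-associated HSP40 named here after its values were seen, stood at 53.1 ± 3.12 and 65.2 ± 2.50 TPM and passed with the GC and length correction (limma adjusted p = 0.0499, against 0.0592 without it).

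The further cochaperones and mitochondrial genes lay on both sides of 0. Among 8 HSP70 cochaperones, BAG2, an inhibitor of the ligase CHIP, had a log2 change of 0.34 (limma adjusted p = 0.0884), the exchange factor HSPBP1 one of -0.27 (limma adjusted p = 0.0886) and BAG6 one of -0.14 (limma adjusted p = 0.166). Among 12 HSP90 cochaperones, RPAP3, SUGT1 and CDC37L1 had 0.23, 0.19 and 0.18 (limma adjusted p = 0.118, 0.143 and 0.194). Of 16 tested genes of mitochondrial protein quality control, the protease subunit CLPP had -0.25, the import motor subunit PAM16 had -0.24 and the protease AFG3L2 had 0.21 (limma adjusted p = 0.0782, 0.124 and 0.104). HSF4, HSBP1 and HSBP1L1 had log2 fold changes of -0.17, 0.08 and 0.01 (limma adjusted p = 0.214, 0.235 and 0.939). Of 7 further heat-inducible genes, SERPINH1, the collagen chaperone HSP47, had 0.27, ZFAND2A had 0.17 and DEDD2 had 0.10 (limma adjusted p = 0.0964, 0.194 and 0.495).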

How the data were processed

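The authors deposited TPM values, 1 column per library and 1 row per gene symbol. The tools named are bcl2fastq and Salmon 0.7.2, with GRCh38, per the submitters' processing notes; libraries came from polyA-selected RNA, per the labels' protocols. For the annotation, the Salmon options and the summing over transcripts, the status is: not given in the sources used here. TPM is not a count, so no counting error can be given and precision rests on 3 replicates per group. Groups and replicate numbers came from the sample titles.

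Values were analysed as log2(TPM + 1), which understates changes of low genes, for rows whose mean reached 1 TPM, in limma 3.58.1 under R 4.3.3 (a single factor, group, with a variance trend, Benjamini-Hochberg over 13470 rows). Means, SDs and ratios were taken on linear TPM. The test was checked on simulated data in which genes varied independently, unlike the members here. Most log2 changes of 0.3, the smallest size tried, were missed there, and so were some of 0.5 and 1 in either direction. A gene that was not called may therefore still differ. Ratios of members were compared with exact two-sided permutation tests on the log2 scale. Members with non-overlapping groups are given library by library; of the other lists, up to 3 tested genes with the largest absolute change are named. Members and lists were chosen with earlier results of these data known. Promoters are from RefSeq (GRCh38.p14). Coordinates, GC content and length are from GENCODE 29, which matched 34740 rows by name and 604 by synonym, and the GC and length correction removes a spline trend (5 degrees of freedom each) from each library. Further alternatives were pseudocounts, filters, scalings, empirical Bayes settings, a replicate block and leaving out each library. A further marker list is not reported here.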

Additional observations from a re-analysis of the deposited data

How the results depend on the processing

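The count of members called higher, 2, became 0 with no filter, with no variance trend, with an adjusted p under 0.01, with the replicate block, and with the replicate block plus the GC and length correction. It was 0 to 1 with any 1 library omitted, a fit on fewer samples. With the GC and length correction alone it was 3. The count called lower was 0 in every setting run, with 2 at an unadjusted limma p under 0.05. Over all rows the calls were 152 higher and 113 lower. They were 245 and 183 with a filter of 5 TPM, 54 and 28 with no filter, 51 and 32 with no variance trend, 16 and 6 at an adjusted p under 0.01, 14 and 3 with the replicate block, and 11 and 3 with the block plus the correction. Median centring gave 237 lower and the GC and length correction 219 lower. Leaving out single libraries gave 14 to 55 higher and 4 to 30 lower. The members' median log2 fold change of 0.07 ranged from 0.0368 to 0.118 when single libraries were left out. With median centring it was 0.0303, against -0.00901 over all tested rows. The correction raised the calls among other HSP40 genes from 0 to 1. No pairing by replicate number was seen. Same-numbered libraries had correlations of their deviations of -0.138, -0.00591 and -0.0318, and the libraries did not each correlate best with their own number. Deviations within a group sum to 0 for each gene, so these values cannot settle whether the replicates were paired. Of the 33 tested members 24 kept their sign in all settings and 9 did not, none of them called. The log2 differences of 3 ratios changed sign when single libraries were left out, ranging from -0.0267 to 0.0886 for HSPA1B to HSPA8, from -0.0312 to 0.0753 for HSPA4 to HSPA4L and from -0.0449 to 0.105 for DNAJB1 to DNAJA1. The cause of these changes was not tested.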
